A study of Drosophila melanogaster with 6 samples.

Results

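Genes of DNA replication were followed in whole Drosophila melanogaster embryos that expressed the transcription factor Sage from a transgene. The 39 genes were listed by name and covered origin recognition and loading, the MCM helicase, origin firing, DNA polymerases, the sliding clamp with its loader and the single-strand binding proteins, lagging-strand maturation with topology, and nucleotide supply. A gene was measured where a probe set of the array was annotated to that gene alone, under its listed name or a RefSeq synonym, and the probe set with the highest mean signal stood for it. This gave 33 of the 39 genes, out of 11981 genes named in this way on the array. Orc6, geminin, Mcm7, PolD1 (listed as DNApol-delta), Top2 and RnrS had no such probe set and were not analysed here. Only chif had 2 probe sets.

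Both groups came from embryos of stages 11 to 16 that carried the tub-Gal4 driver, whose tubulin promoter is active in most cells. The 3 control samples had the driver alone, and the 3 Sage samples had the driver with UAS-Sage, so that Sage, a basic helix-loop-helix protein normally made in the salivary gland, was driven beyond its usual tissue. Embryos passed through a COPAS biosorter before RNA was extracted. Each array averaged the tissues of whole embryos, and fewer cells of a type and less RNA per cell cannot be told apart. The labels give stages 11 to 16 but not the mix of ages in each sample. A difference in embryo age between the groups cannot be told apart from Sage and was not tested. Nothing in the labels says that the samples of a group were separate collections, and p-values therefore measure the spread between these samples only, which may be technical.

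DNA replication begins at origins that are bound by the origin recognition complex. During G1, Cdc6 and Cdt1 (the product of dup) load the MCM helicase there, which licenses the origin, and geminin blocks Cdt1 after S phase begins. The Cdc7 kinase with its partner Dbf4 (the product of chif), together with Mcm10, Cdc45 and the GINS complex, turns the loaded helicase into a moving one. DNA polymerase alpha-primase then starts each strand, replication factor C loads the PCNA clamp, replication protein A coats single-stranded DNA, Fen1 and DNA ligase finish lagging-strand fragments, and ribonucleotide reductase supplies deoxynucleotides. In the fly embryo the mother loads many of these transcripts into the egg. Later in embryogenesis most epidermal cells leave the cell cycle, while neuroblasts keep dividing and tissues such as the gut and the salivary gland copy their DNA without dividing.

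The values were log2 signals per probe set after RMA, which was run by the authors, and the number of arrays limits the precision. Control replicate 3 stood apart. Its Pearson correlation across all probe sets with the Sage arrays was 0.895 to 0.904, against 0.954 to 0.972 for control replicates 1 and 2, as a description across probe sets that are not independent. Results are therefore also given without it. The sage probe set, which checks the labels, read 7.38, 7.50 and 7.66 in the controls and 12.39, 12.53 and 12.50 with the transgene.

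With Sage, 9 of the 33 replication genes fell and none rose at an adjusted p under 0.05 (limma, Benjamini-Hochberg over all 18769 probe sets tested). They were dup, Cdc6 and Orc1 of origin loading, Mcm6 of the helicase, Mcm10, Sld5 and chif of origin firing, RfC38 of the clamp loader and RPA2 of replication protein A. With every array in the fit, each fell at least 2-fold on the probe set that stood for it, from 2.12-fold for Orc1 to 6.24-fold for Mcm10. Without control replicate 3 the difference of Orc1 was -0.86 on the log2 scale, which is under 2-fold. No measured gene of the polymerases, of lagging-strand maturation or of ribonucleotide reductase passed. Of members with a mean log2 signal of at least 8, 8 of 15 fell, beside 21.7% of all such probe sets. Of members under 8, 1 of 18 fell. The measured polymerase and lagging-strand genes were all under 8, so role and signal level are not separated here. Over all probe sets, 9.45% were lower and 4.25% higher by the same rule, and 12.2% of named genes were lower, against 27.3% of the measured members.

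The median difference over the 33 genes, Sage minus control, was -0.47 on the log2 scale, against 0.00032 over all probe sets tested and 0.013 over 1 probe set per gene. It was -0.05 without control replicate 3 and -0.75 without control replicate 1. An unadjusted p under 0.05 (limma) was reached by 11 genes with a negative difference and by 0 with a positive one. The same was reached by 2746 and 2244 of all 18769 probe sets, and by 2177 and 1813 of 11981 named genes. All 3 Sage arrays lay below all 3 control arrays for 13 genes, and above them for 0, against 18.1% and 16.6% of all probe sets. The 13 were those that fell together with Psf1, Psf2, PCNA and RnrL. The count of genes that fell was 4 without Sage replicate 3, and 6 and 7 without Sage replicates 1 and 2. It was 10, 8 and 11 without control replicates 1, 2 and 3. Over all probe sets, 1774 were lower with every array in the fit. Without Sage replicates 3, 1 and 2 this was 934, 1159 and 1178. Without control replicates 1, 2 and 3 it was 2035, 1228 and 1955. The 4 members called without Sage replicate 3 were dup, Cdc6, Mcm10 and RfC38, which also passed under each of the 17 alternative fits.

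**Figure D1:**
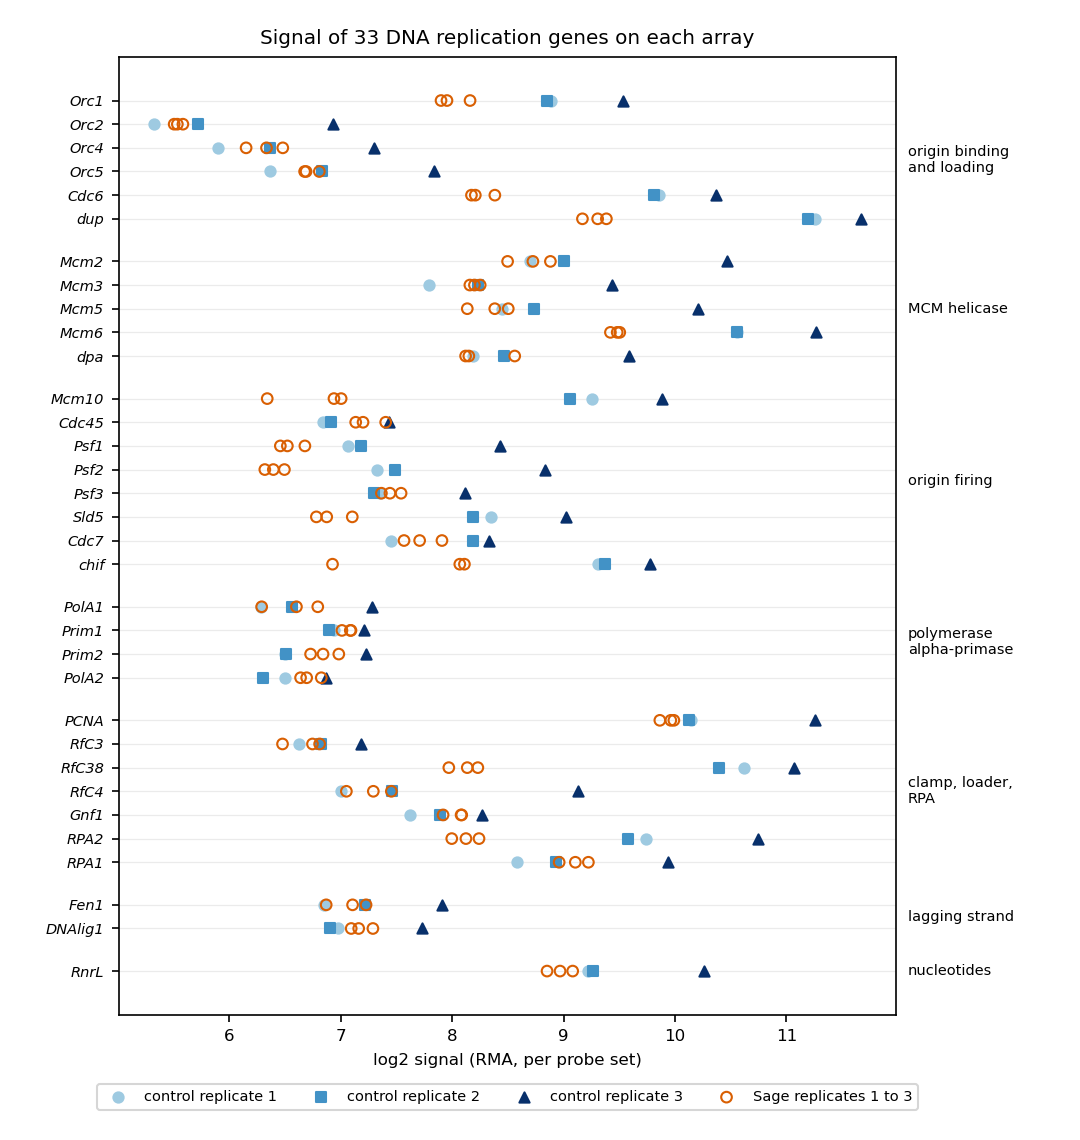
Log2 signal (horizontal axis) of the 33 measured replication genes (rows, grouped by role) on each of the 6 arrays, with 1 symbol per array. Signals of different genes come from different probes and are not to be compared. Control replicate 3 lies to the right of all Sage arrays in all 33 rows, whereas control replicates 1 and 2 do so together in 13 rows.

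**Figure D2:**
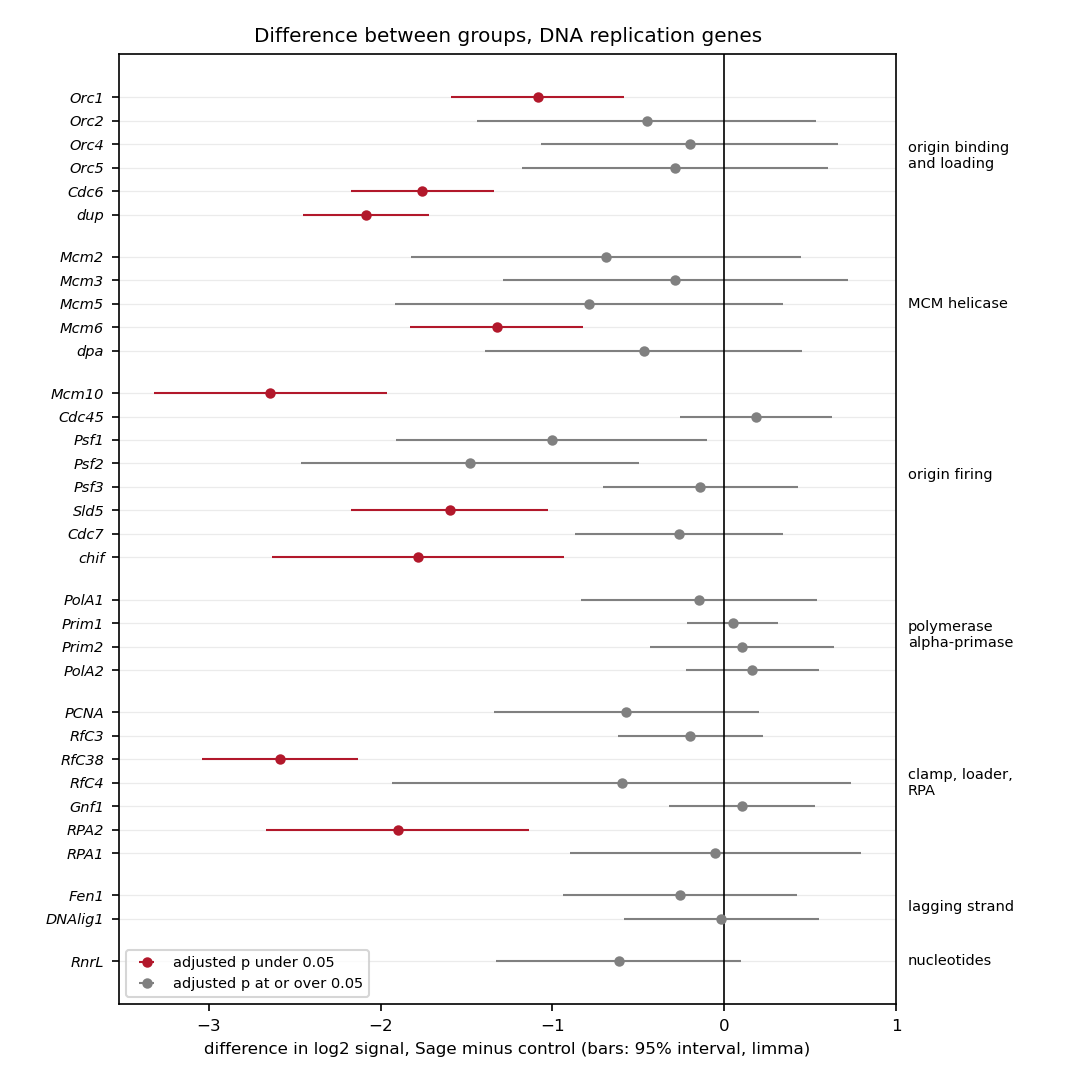
Difference in log2 signal, Sage minus control (points), with the 95% interval from limma (bars, 3 arrays against 3) for the 33 genes. The 9 genes past the threshold lie between -2.64 and -1.09, and the 4 polymerase alpha-primase genes lie near 0.

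Of 6 measured genes of origin recognition and loading, 3 fell, and the genes that load the helicase fell most. dup, which encodes Cdt1, had log2 signals of 11.25, 11.20 and 11.67 in control replicates 1 to 3 and 9.38, 9.17 and 9.31 in Sage replicates 1 to 3. The groups were far apart, and dup fell 4.25-fold, with a difference of -2.09 (SE 0.15) and an adjusted p of 0.00117 by limma. Cdc6, the ATPase that acts with Cdt1, had signals of 9.86, 9.81 and 10.36 in control replicates 1 to 3 and 8.38, 8.17 and 8.21 in Sage replicates 1 to 3. Its control arrays also lay above every Sage array, and it fell 3.38-fold (log2 difference -1.76, SE 0.17, adjusted p = 0.00237 by limma). Orc1, an ATPase subunit of the origin recognition complex, had signals of 8.88, 8.85 and 9.53 in control replicates 1 to 3 and 8.16, 7.95 and 7.90 in Sage replicates 1 to 3. It fell 2.12-fold (log2 difference -1.09, SE 0.21, adjusted p = 0.0206 by limma), again with no overlap, but the call was lost when any 1 of the Sage arrays was left out (adjusted p = 0.0572, 0.0842 and 0.0965).

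The other subunits of the origin recognition complex did not pass. Orc2 had signals of 5.32, 5.72 and 6.93 in control replicates 1 to 3 and 5.50, 5.53 and 5.58 in Sage replicates 1 to 3. Orc4 had 5.90, 6.36 and 7.30 in control replicates 1 to 3 and 6.33, 6.48 and 6.15 in Sage replicates 1 to 3. In both, control replicate 3 was the highest array and control replicate 1 the lowest, with the Sage arrays between them. Their differences were -0.45 (SE 0.40) and -0.20 (SE 0.35), with adjusted p-values of 0.558 and 0.788 by limma. Orc5 showed the same order and a difference of -0.29 (SE 0.36). Without control replicate 3 the 3 differences were positive, at 0.018, 0.19 and 0.13.

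Of 5 measured subunits of the MCM helicase, the ring that unwinds DNA at the fork, Mcm6 fell and 4 did not pass. Mcm6 had signals of 10.56, 10.56 and 11.26 in control replicates 1 to 3 and 9.42, 9.50 and 9.48 in Sage replicates 1 to 3. The Sage arrays differed by less than 0.1 among themselves and lay below every control array, and Mcm6 fell 2.5-fold (log2 difference -1.32, SE 0.21, adjusted p = 0.0105 by limma), though not past the threshold without Sage replicate 3 (adjusted p = 0.0553). Mcm2 had signals of 8.70, 9.01 and 10.47 in control replicates 1 to 3 and 8.88, 8.72 and 8.50 in Sage replicates 1 to 3. Mcm5 had 8.45, 8.73 and 10.20 in control replicates 1 to 3 and 8.38, 8.50 and 8.14 in Sage replicates 1 to 3. Both were far higher on control replicate 3 than on any other array, with differences of -0.69 (SE 0.46) and -0.79 (SE 0.46) and adjusted p-values of 0.417 and 0.351 by limma. dpa, which encodes Mcm4, had signals of 8.18, 8.47 and 9.58 in control replicates 1 to 3 and 8.15, 8.56 and 8.12 in Sage replicates 1 to 3. Mcm3 had 7.79, 8.23 and 9.44 in control replicates 1 to 3 and 8.25, 8.20 and 8.16 in Sage replicates 1 to 3. In both, control replicate 3 was the highest array, and for Mcm3 control replicate 1 lay below every Sage array. The differences were -0.47 (SE 0.38) for dpa (adjusted p = 0.505 by limma) and -0.29 (SE 0.41) for Mcm3 (adjusted p = 0.735 by limma). Without control replicate 3 these were -0.05 and 0.19. Together with the loading genes, 4 of 11 licensing genes fell, with a median difference of -0.69.

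Among 8 genes of origin firing, 3 fell and 5 did not pass. Mcm10, which helps to turn on the loaded helicase, had signals of 9.26, 9.06 and 9.88 in control replicates 1 to 3 and 7.0, 6.34 and 6.94 in Sage replicates 1 to 3. It fell 6.24-fold, with every Sage array over 2 log2 units below the lowest control (log2 difference -2.64, SE 0.28, adjusted p = 0.00289 by limma). Sld5, a GINS subunit, had signals of 8.34, 8.18 and 9.02 in control replicates 1 to 3 and 6.78, 7.10 and 6.87 in Sage replicates 1 to 3. The groups did not overlap, and it fell 3.02-fold (log2 difference -1.6, SE 0.23, adjusted p = 0.0087 by limma), but its adjusted p was just over 0.05 without Sage replicate 3. chif, the Dbf4 partner of the Cdc7 kinase, had signals of 9.30, 9.38 and 9.77 in control replicates 1 to 3 and 8.07, 6.93 and 8.11 in Sage replicates 1 to 3. Sage replicate 2 was lower than the other Sage arrays, and chif fell 3.44-fold (log2 difference -1.78, SE 0.35, adjusted p = 0.0226 by limma).

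The second probe set of chif did not show this fall, with 8.36, 8.61 and 8.86 in control replicates 1 to 3 and 8.66, 7.90 and 8.30 in Sage replicates 1 to 3. Its groups overlapped, at a difference of -0.32 (SE 0.23, adjusted p = 0.435 by limma), so the fall of chif rests on 1 of 2 probe sets. That probe set also did not pass without control replicate 2 or Sage replicate 1 or 3 (adjusted p = 0.0696, 0.0506 and 0.0533). Cdc7, the catalytic partner, had a difference of -0.26 (SE 0.25) and did not pass (adjusted p = 0.578 by limma).

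Of the other GINS genes, Psf2 had signals of 7.32, 7.49 and 8.84 in control replicates 1 to 3 and 6.49, 6.39 and 6.32 in Sage replicates 1 to 3. All Sage arrays lay below all controls, but the control spread was large, and the difference of -1.48 (SE 0.40) did not pass (adjusted p = 0.0667 by limma). It passed without control replicate 3 (difference -1.0, adjusted p = 0.00232) and without control replicate 1 (adjusted p = 0.037). Psf1 showed the same arrangement, at -1.0 (SE 0.37, adjusted p = 0.149 by limma), and also passed without control replicate 3 (-0.57, adjusted p = 0.0176). Psf3 had signals of 7.35, 7.30 and 8.12 in control replicates 1 to 3 and 7.44, 7.54 and 7.36 in Sage replicates 1 to 3. Here the Sage arrays lay among the controls, with a difference of -0.14 (SE 0.23, 95% interval -0.71 to 0.43, adjusted p = 0.774 by limma). Cdc45, which joins MCM and GINS in the active helicase, had the most positive difference of the 33 genes, 0.18 (SE 0.18), and did not pass (adjusted p = 0.595 by limma).

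None of the 4 measured genes of DNA polymerase alpha-primase passed, at unadjusted p under 0.05 or after adjustment by limma, and their differences lay between -0.15 and 0.16. PolA1, the catalytic subunit (listed as DNApol-alpha180), had signals of 6.28, 6.56 and 7.28 in control replicates 1 to 3 and 6.79, 6.29 and 6.60 in Sage replicates 1 to 3. PolA2, the regulatory subunit (DNApol-alpha73), had 6.50, 6.30 and 6.87 in control replicates 1 to 3 and 6.64, 6.82 and 6.69 in Sage replicates 1 to 3. In both, the Sage arrays lay inside the span of the controls, at -0.15 (SE 0.28) and 0.16 (SE 0.16). The primase genes Prim1 (DNApol-alpha50) and Prim2 (DNApol-alpha60) encode the enzyme that makes the RNA primer. Prim1 had signals of 6.94, 6.89 and 7.21 in control replicates 1 to 3 and 7.09, 7.08 and 7.01 in Sage replicates 1 to 3. Prim2 had 6.50, 6.51 and 7.23 in control replicates 1 to 3 and 6.84, 6.98 and 6.73 in Sage replicates 1 to 3. Control replicate 3 was again the highest array and the other controls were the lowest, with differences of 0.048 (SE 0.11) for Prim1, which was -0.044 with median centring, and 0.10 (SE 0.22) for Prim2. The 95% intervals from limma reached down to -0.22 for Prim1, -0.22 for PolA2, -0.43 for Prim2 and -0.83 for PolA1 on the log2 scale. They rest on the spread between these samples only, so they do not bound the change in transcript. Adjusted p-values by limma ran from 0.592 to 0.84.

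Of 7 genes of the clamp, the clamp loader and replication protein A, 2 fell. RfC38, a small subunit of the clamp loader, had signals of 10.62, 10.40 and 11.07 in control replicates 1 to 3 and 8.23, 8.14 and 7.97 in Sage replicates 1 to 3. It fell 5.99-fold, with each Sage array over 2 log2 units below the lowest control (log2 difference -2.58, SE 0.19, adjusted p = 0.00117 by limma). RPA2, the middle subunit of replication protein A, had signals of 9.74, 9.58 and 10.74 in control replicates 1 to 3 and 8.12, 8.24 and 8.0 in Sage replicates 1 to 3. The groups did not overlap, and RPA2 fell 3.73-fold (log2 difference -1.90, SE 0.31, adjusted p = 0.0128 by limma). Leaving out Sage replicate 1, 2 or 3 ended this call (adjusted p = 0.0545, 0.0514 and 0.0668), at differences of -1.90, -1.96 and -1.84.

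The partners of these genes did not pass. RPA1, the large subunit (listed as RpA-70), had signals of 8.58, 8.93 and 9.94 in control replicates 1 to 3 and 9.22, 9.11 and 8.96 in Sage replicates 1 to 3. The Sage arrays lay between control replicates 2 and 3, at a difference of -0.052 (SE 0.35, adjusted p = 0.955 by limma), which was 0.34 without control replicate 3. RfC3 had signals of 6.62, 6.82 and 7.18 in control replicates 1 to 3 and 6.75, 6.81 and 6.48 in Sage replicates 1 to 3, overlapping between groups, and a difference of -0.20 (SE 0.17, adjusted p = 0.544 by limma). Gnf1, the large subunit of the clamp loader, differed by 0.10 (SE 0.17) and RfC4 by -0.60 (SE 0.54). PCNA, the sliding clamp, had signals of 10.14, 10.13 and 11.25 in control replicates 1 to 3 and 9.99, 9.96 and 9.86 in Sage replicates 1 to 3. Its Sage arrays were all below its controls, but by under 0.5 for control replicates 1 and 2, and the difference of -0.57 (SE 0.31) did not pass (adjusted p = 0.323 by limma). Without control replicate 3 it was -0.20, and it did not pass there either (adjusted p = 0.199).

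Lagging-strand and nucleotide genes did not pass. Fen1, the flap endonuclease, had signals of 6.85, 7.22 and 7.91 in control replicates 1 to 3 and 7.11, 7.23 and 6.87 in Sage replicates 1 to 3. DNAlig1 (listed as DNA-ligI), which seals the fragments, had 6.97, 6.90 and 7.72 in control replicates 1 to 3 and 7.29, 7.16 and 7.09 in Sage replicates 1 to 3. In both the Sage arrays overlapped the controls, with differences of -0.26 (SE 0.28) and -0.019 (SE 0.23, adjusted p = 0.638 and 0.974 by limma). RnrL, the large subunit of ribonucleotide reductase, had signals of 9.22, 9.27 and 10.26 in control replicates 1 to 3 and 9.08, 8.97 and 8.85 in Sage replicates 1 to 3. The Sage arrays lay below all controls, by under 0.5 for control replicates 1 and 2, and the difference of -0.61 (SE 0.29) did not pass (adjusted p = 0.249 by limma).

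Each control array was then set against the 3 Sage arrays. Control replicate 3 exceeded all Sage arrays for 33 of 33 genes, against 45.4% of all probe sets, and fell below them for 0 (background 30.6%). Control replicate 2 was above all Sage arrays for 20 genes (background 30.9%) and below for 8 (background 35.5%). Control replicate 1 was above for 13 (background 26.5%) and below for 16 (background 37.8%). The genes for which it was below all Sage arrays included all 4 alpha-primase genes, RPA1, Gnf1, Mcm3, Orc2, Orc4 and Orc5. The median of the 33 genes against the Sage mean was -0.093, 0.19 and 1.31 in control replicates 1, 2 and 3, beside -0.039, -0.019 and 0.072 over all probe sets.

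For the 9 genes that fell (chosen by that test, so that this is a description), the medians against the Sage mean were 1.6, 1.56 and 2.11 in control replicates 1, 2 and 3. For the 24 others they were -0.22, 0.12 and 0.91. Control replicate 3 was the highest control for 33 of 33 genes, against 57.7% of all probe sets, exceeding the mean of the other controls by 0.30 (Prim1) to 1.90 (RfC4). The excess was 1.62 for Mcm2 and 1.61 for Mcm5, against 0.71 for Mcm6. The control SD was larger than the Sage SD for 32 of 33 genes, chif being the exception, with medians of 0.473 and 0.127, beside 0.16 and 0.114 over all probe sets. With control replicate 3 left out, 11 genes fell and none rose, beside 10.4% of all probe sets lower and 5.58% higher. These were the 9 already named with Psf1 and Psf2.

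**Figure D3:**
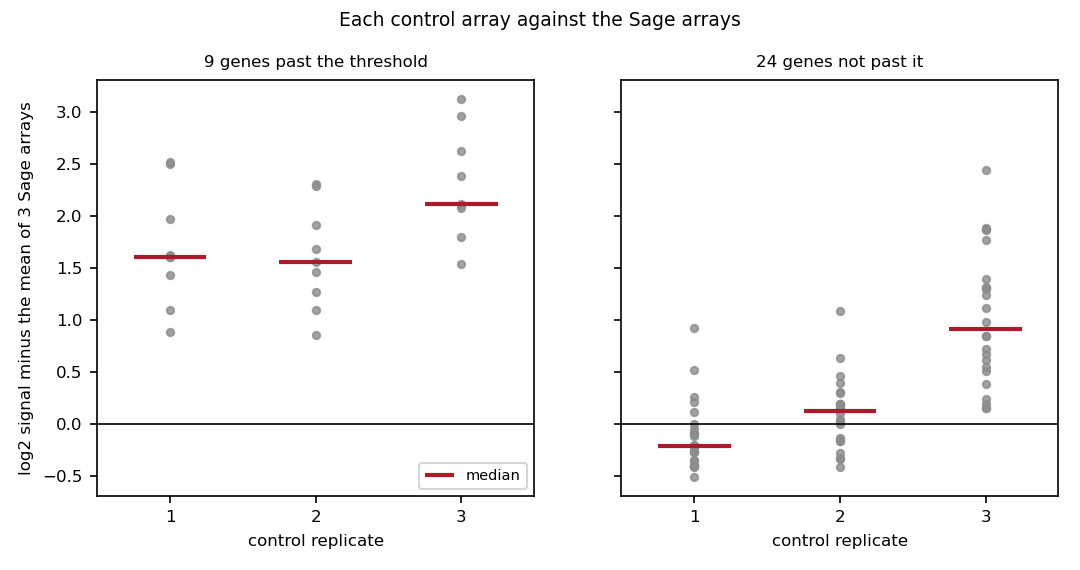
Log2 signal of each control array minus the mean of the 3 Sage arrays (vertical axis), with 1 point per gene and the median as a bar, for the 9 genes past the threshold (left) and the other 24 (right). On the left the medians of the 3 control arrays are 1.6, 1.56 and 2.11, and on the right only control replicate 3 has all its points above 0.

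Within a complex, the ratio of 2 subunits on the same array removes what both share on that array. These ratios were chosen after the values had been seen. Over 35 pairs in 6 complexes, 18 ratios did not overlap between the groups, which is 51.4% of them, against 63.8% of all 528 pairs of members. Each such pair had an exact two-sided permutation p of 0.1, the smallest that 3 arrays against 3 allow (adjusted over the pairs 0.194). No pair of the 6 within alpha-primase was among them, and 5 of 6 were in both GINS and the clamp loader. The pair with the largest change in each complex is described here.

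In the clamp loader, the log2 ratio of RfC38 to Gnf1 was 3.0, 2.51 and 2.80 in control replicates 1 to 3 and 0.15, 0.056 and 0.052 in Sage replicates 1 to 3. In replication protein A, RPA2 over RPA1 gave 1.16, 0.65 and 0.81 in control replicates 1 to 3 and -1.10, -0.86 and -0.96 in Sage replicates 1 to 3. Both ratios were lower on each Sage array than on any control, with mean differences of -2.68 and -1.85. In GINS, Sld5 over Psf3 was 0.99, 0.89 and 0.90 in control replicates 1 to 3 and -0.66, -0.44 and -0.49 in Sage replicates 1 to 3. The control values of this ratio had an SD of 0.058, against 0.44 for Sld5 itself. In the MCM ring, Mcm6 over Mcm3 was 2.77, 2.32 and 1.83 in control replicates 1 to 3 and 1.17, 1.30 and 1.32 in Sage replicates 1 to 3, and Orc1 over Orc4 was 2.98, 2.49 and 2.24 in control replicates 1 to 3 and 1.83, 1.47 and 1.75 in Sage replicates 1 to 3. These also did not overlap. In alpha-primase, PolA1 over PolA2 was -0.21, 0.26 and 0.41 in control replicates 1 to 3 and 0.15, -0.54 and -0.092 in Sage replicates 1 to 3, with overlap (exact p = 0.4). The control SD of a ratio was not always far below that of its first gene alone. It was 0.25 against 0.34 for RfC38 over Gnf1, 0.26 against 0.63 for RPA2 over RPA1 and 0.33 against 0.51 for PolA1 over PolA2. For Orc1 over Orc4 it was 0.38 against 0.39, and for Mcm6 over Mcm3 it was larger, 0.47 against 0.41. A shift in such a ratio would mean unequal change of 2 transcripts, and not which of them changed. These pairs were picked as the largest in each complex, and none passed after adjustment (0.194 at the smallest, exact permutation test). Separation was no more common within complexes (51.4%) than over all pairs of members (63.8%). The ratios are therefore a description only.

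**Figure D4:**
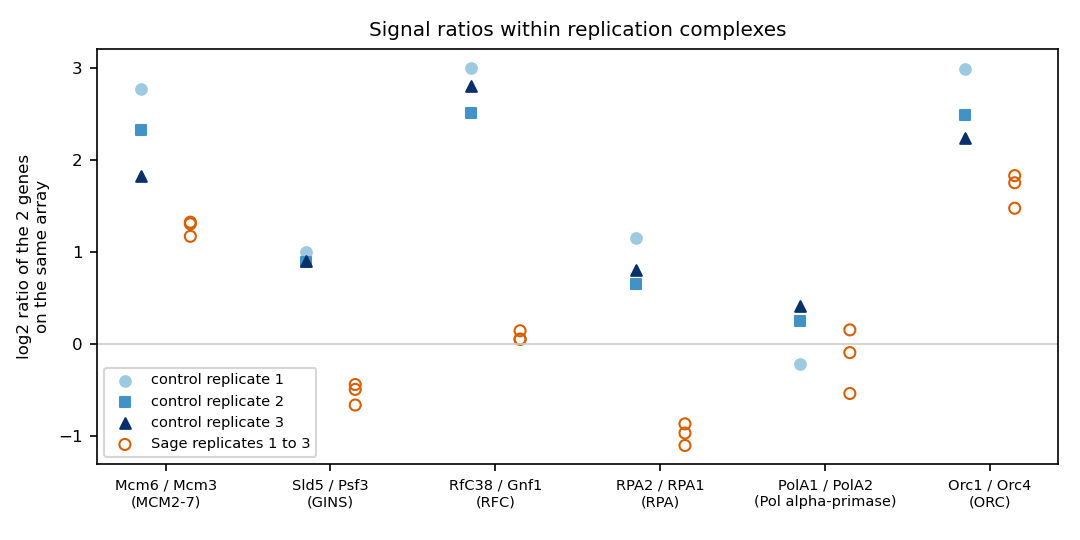
Log2 ratio of 2 genes of 1 complex on the same array (vertical axis), with 1 symbol per array, for the pair with the largest difference between the groups in each of 6 complexes. The absolute height depends on the probes and only the shift between controls and Sage can be read. The groups are separate in 5 of the 6 pairs and overlap for PolA1 over PolA2.

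Other genes around replication were counted over whole lists drawn up by role. Of 25 measured among 30 listed further fork and licensing genes, 5 fell and none rose (median -0.31). That is 20.0% lower, beside 9.45% of all probe sets and 12.2% of named genes. In a fit of probe sets with a mean log2 signal of at least 8, 5 of 7 fell, beside 23.7% of all such probe sets. Top1, the topoisomerase that relaxes DNA ahead of the fork, went from 10.51 ± 0.19 to 8.38 ± 0.12 (SD, n = 3; 4.38-fold, adjusted p = 0.000912 by limma). timeout, the fly gene most like the fork protection factor Timeless of mammals, fell 3.77-fold. The other 3 included rnh1, which encodes ribonuclease H1, and san, which encodes an acetyltransferase of sister chromatid cohesion and no fork protein. None of the measured genes PolE1 and PolE2 of polymerase epsilon or PolD2 and PolD3 of polymerase delta passed, at differences of -0.11, -0.0087, -0.21 and -0.076. Without control replicate 3, 2 genes of this list rose, beside 5.58% of all probe sets.

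Of 16 measured among 19 listed further genes of nucleotide supply, 6 fell and 2 rose, with a median of 0.0044. The share that fell was 37.5%, beside 9.45% of all probe sets lower and 4.25% higher. In a fit of probe sets with a mean log2 signal of at least 8, 6 of 11 fell, beside 23.7% of all such probe sets. dUTPase, which keeps uracil out of DNA, went from 12.28 ± 0.15 to 9.85 ± 0.015 (SD, n = 3; 5.36-fold, adjusted p = 0.000315 by limma). dnk, the deoxynucleoside kinase, fell 2.87-fold. veil, of the 5'-nucleotidase family, rose 2.4-fold and Adk3, an adenylate kinase, 1.35-fold. Adk3 lost its call on leaving out control replicate 2 or 3 (adjusted p = 0.137 and 0.0577) or Sage replicate 1, 2 or 3 (0.14, 0.143 and 0.145), so that 1 gene rose in those fits. Ts, thymidylate synthase, had -0.93 (SE 0.33) and did not pass (adjusted p = 0.134 by limma).

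Of 16 measured among 18 listed genes of E2F and G1-S control, which governs replication genes at the start of S phase, 6 fell and none rose (median -0.56). This was 37.5% of them, beside 9.45% of all probe sets and 12.2% of named genes. In a fit of probe sets with a mean log2 signal of at least 8, 6 of 13 fell, beside 23.7% of all such probe sets. CycD, the G1 cyclin, fell 3.67-fold, from 9.74 ± 0.28 to 7.86 ± 0.091 (SD, n = 3; adjusted p = 0.00163 by limma). Rbf2, a retinoblastoma family protein, fell 3.42-fold (adjusted p = 0.0169 by limma), but lost its call when any 1 of the Sage arrays was left out (adjusted p = 0.054, 0.0749 and 0.0789). The count that fell was 3 without Sage replicate 2 and 3 without Sage replicate 3, beside 1178 and 934 of all probe sets. Without control replicate 3, 1 gene rose, beside 5.58% of all probe sets. The E2F partner Dp was among those that fell, at -0.95 (SE 0.16), while E2f2 and Rbf had 0.061 (SE 0.19) and 0.36 (SE 0.18) and did not pass. No probe set named E2f1 alone.

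Of 3 maternal regulators of the embryonic S phase, plu fell. It had signals of 9.85, 9.58 and 10.13 in control replicates 1 to 3 and 5.64, 5.10 and 5.72 in Sage replicates 1 to 3 (adjusted p = 0.000608 by limma). Its Sage values lay under the median signal of their arrays (5.56 to 5.74 over the 6 arrays), where a fold is poorly measured. Its partner png was under that median on all 6 arrays, and gnu was under it on all 3 Sage arrays. Neither passed, at differences of -0.04 (SE 0.12) for png and -0.53 (SE 0.34) for gnu. Of 21 measured among 27 listed checkpoint and repair genes, 4 fell and none rose (median -0.63). The share lower was 19%, beside 9.45% of all probe sets and 12.2% of named genes. Without control replicate 3 the count was 8, beside 10.4% of all probe sets. In a fit of probe sets with a mean log2 signal of at least 8, 1 of 3 fell, beside 23.7% of all such probe sets. mus81, a structure-specific nuclease, fell 6.81-fold (adjusted p = 0.00581 by limma) and mre11, of the double-strand break complex, 6.23-fold (adjusted p = 0.00324 by limma). Control replicate 3 was the highest control for 24 of 25 further fork genes, 16 of 16 E2F and G1-S genes, 21 of 21 checkpoint and repair genes and 10 of 16 nucleotide genes, against the same 57.7% of all probe sets.

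**Figure D5:**
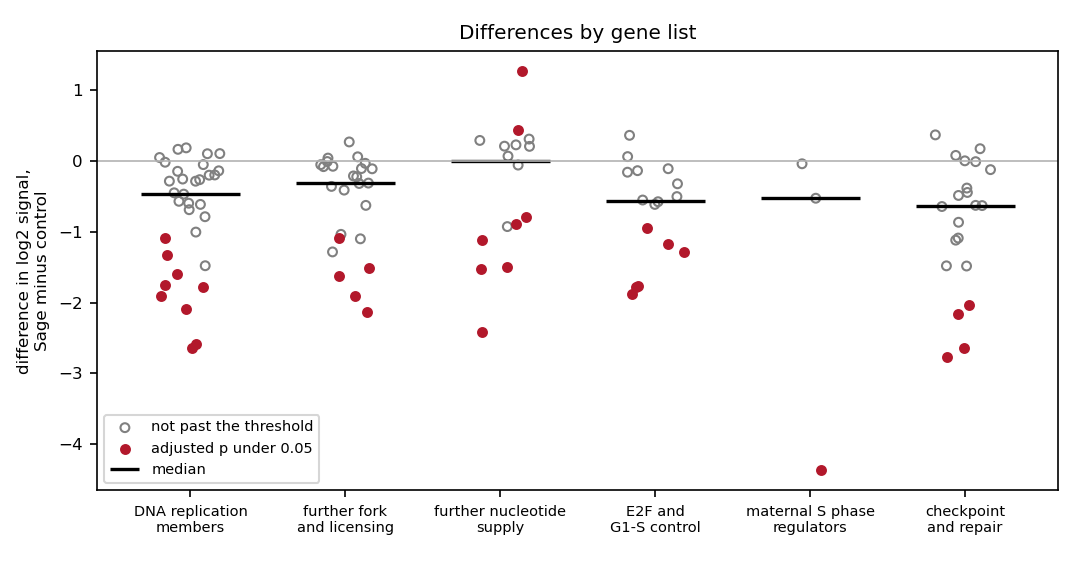
Difference in log2 signal, Sage minus control (vertical axis), for each gene of the replication genes and of 5 further lists, with filled points past the threshold and the median as a bar. Filled points lie below 0 in every list apart from veil and Adk3 of nucleotide supply.

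Markers of cells that could hold replication transcripts, listed together with maternal transcripts, moved with the groups in part. Summed over the list on the linear scale, 7 germ line and maternal markers had signals of 3576 to 5676 in the controls and 1532 to 1803 with Sage. Such a sum is set mostly by the brightest probes. With Sage much of it was gcl, which had 10.72, 10.17 and 9.93 in control replicates 1 to 3 and 10.56, 10.38 and 10.49 in Sage replicates 1 to 3 and did not pass. The median difference of the list was -2.48 on the log2 scale. The 3 that fell were swa, BigH1 and bcd, with differences of -4.48 (SE 0.35), -4.14 (SE 0.27) and -3.78 (SE 0.47). osk had -2.48 (SE 0.63) and did not pass (adjusted p = 0.0549 by limma). Nor did nanos, at -0.17 (SE 0.14), or vas, at -0.30 (SE 0.11). vas, the defining germ cell marker, was under the median signal of every array. The list joins germ line and maternal transcripts, so its fall does not measure the number of germ cells. The replication genes summed to 14714 to 26794 and 8059 to 8871. The 8 markers of late epidermis went the other way, from 1543 to 4855 in the controls to 7924 to 9656 with Sage, with 3 higher, the lowest sum on control replicate 3, and 3 markers under the median of every array. Neuroblast markers (6 measured, none passing) ranged from 1590.2 to 3921 in the controls, highest on control replicate 3, and from 2422 to 2571 with Sage, inside the control range. Genes listed for the endocycling gut (3 measured, none passing) ranged from 1374 to 1667 and from 1629 to 1758. This sum hides differences in both directions. GATAe had 0.79 (SE 0.26), while srp had -0.45 (SE 0.17) and hkb -0.30 (SE 0.29). Salivary gland markers had 1212 to 1499 and 8969 to 9872, with 4 of 5 higher. These include sage itself, whose rise of 4.96 was set by the transgene and which made up much of the sum with Sage. Of the others, PH4alphaSG1, PH4alphaSG2 and Sgs4 were higher by 2.10, 1.73 and 3.26 on the log2 scale. fkh had 0.12 (SE 0.27) and did not pass (adjusted p = 0.838 by limma). Beside these marker counts, 9.45% of all probe sets were lower and 4.25% higher by the same rule. The part of all these markers in the differences of the replication genes was not tested.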

How the data were processed

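The 6 arrays were Affymetrix 3' expression arrays of whole embryos, 3 per group, grouped by the sample titles. The values deposited by the authors are on a log2 scale, one signal for each probe set. Per the submitters' processing notes, RMA and Partek were used (versions not stated), and per the labels' protocols the RNA was amplified with a 3' in vitro transcription kit. RMA equalises the arrays, so a change in total RNA per embryo cannot be seen, and it compresses differences near background.

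From these values, 183 control probe sets were left out and 18769 were tested with limma 3.58.1 (lmFit and eBayes, R 4.3.3), Sage minus control, two-sided, with Benjamini-Hochberg adjustment over all of them at 0.05 and no filter on dim signal. Exact tests used scipy 1.17.1. Probe sets naming exactly 1 gene in the platform annotation numbered 13646, and names of 13543 were updated by Entrez identifier to RefSeq. Coordinates and promoter motifs were not analysed here. The fit was tested on simulated data. The members and lists were chosen with earlier results of these data known. Every member is named. Values on each array are given, within each role, for up to 4 genes with the smallest adjusted p and for the 1 with the largest. Further lists are represented by the largest 2 falls and 2 rises past the threshold. The genes rnh1, san, Ts, Dp, E2f2, Rbf, gnu, png, the polymerase epsilon and delta genes and the subunit ratios were chosen once values had been seen. The alternatives were the replicate block, each array left out, 2 signal filters, median centring, quantile normalization, trended and robust priors, array weights, no moderation, 1 probe set per gene and other probe sets. Samples of the same number did not deviate together (correlations of -0.13, -0.068 and -0.25), against -0.073 to 0.29 for different numbers. With 3 arrays per group such values cannot decide whether the numbers pair the samples, and no pairing was used in the reported fit.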

Additional observations from a re-analysis of the deposited data

How the results depend on the processing

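The count of replication genes that fell was 9 as reported and 4 to 11 with single arrays left out, and 0 rose in each of those fits. Over all probe sets, 934 to 2035 were lower in those fits, against 1774 as reported. The count of replication genes was 4 without moderation of the variances, where 1026 probe sets were lower in all. It was 16 with 5 rising under estimated array weights. Their estimation stopped before convergence, and they called 4922 probe sets lower and 4869 higher in all. Under median centring, quantile normalization and the trended and robust priors, the same 9 genes fell. With the replicate number as a block (replicate block), a pairing that is not known, 7 fell, beside 1057 of all probe sets. Orc1 and RPA2 were lost, at adjusted p of 0.0721 and 0.0512 by limma. Averaging the probe sets of chif gave -1.05 (adjusted p = 0.059), and a filter at a mean signal of 6 added Psf2 (adjusted p = 0.0411). No gene that fell changed sign under any alternative. Of genes that did not pass, 13 did change sign. With single arrays left out, their differences ranged as follows: Orc2 -0.78 to 0.018, Orc4 -0.51 to 0.19, Orc5 -0.61 to 0.13, Mcm3 -0.63 to 0.19, Psf3 -0.28 to 0.12, PolA1 -0.36 to 0.14, Prim1 -0.013 to 0.15, Prim2 -0.019 to 0.34, RfC4 -1.03 to 0.038, Gnf1 -0.051 to 0.27, RPA1 -0.34 to 0.34, Fen1 -0.49 to 0.036, DNAlig1 -0.17 to 0.24. Under array weights, PolA1 was 0.043, RPA1 0.093, Psf3 0.094 and DNAlig1 0.23. Prim1 was -0.044 with centring and RPA1 0.067 with quantile normalization. The cause of these changes of sign was not tested. A fit without 1 array has fewer residual degrees of freedom, so a call can be lost with the difference unchanged. For the further lists, the counts that moved by over 1.5 times with 1 array left out are given beside them. The control spread, and with it the precision, differed between genes: Psf2, with a control SD of 0.83, did not pass at -1.48, whereas Mcm6, with 0.41, passed at -1.32.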
